A study of Mus musculus with 18 samples.

Results

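Small protease inhibitors are encoded by the 9 genes described here, 9 of the 17941 gene symbols counted in neutrophils from the spleens of mice that develop lupus with age. They were taken by symbol: Wfdc21, Wfdc17 and Slpi from the whey acidic protein family, Stfa1, Stfa2, Stfa2l1, Stfa3 and BC100530 from the stefin A cluster, and Cstb, the gene of stefin B. The mice were untreated female NZBWF1/J animals, the hybrid offspring of NZB and NZW parents, in 3 age groups with 6 mice and 6 libraries each, 14 weeks, 20 weeks and 26 weeks old. The series takes these ages as 3 stages of disease, and it has no strain without disease, so a change with disease and a change with age cannot be told apart. Cells were sorted alive as single cells carrying Ly6B, CD11b and Ly6G with intermediate Ly6C. All 8 neutrophil marker genes examined, among them Ly6g, S100a8 and Csf3r, were counted at every age.

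Whey acidic proteins carry a compact core held together by disulfide bonds. Slpi, secretory leukocyte peptidase inhibitor, is secreted and blocks neutrophil elastase and cathepsin G. Wfdc17 is known in mice as a protein of activated macrophages and microglia, and Wfdc21 encodes a small secreted relative. Stefins lack a signal peptide, stay in the cytosol and block cysteine cathepsins, the proteases of lysosomes, by inserting a wedge of conserved loops into the active site. Stefin B is made by many cell types, whereas the mouse stefin A genes have multiplied into a cluster known for expression in neutrophils and skin.

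All 6 stefin genes encode the conserved first loop of the wedge, and its codons and their flanks show which of the genes are near copies. The stretches below are coding strand from 1 exon each of GRCm38 (GENCODE M21 transcripts), with the 5 codons of the loop motif in capitals.
Stfa1, chr16:36280520-36280564, + strand: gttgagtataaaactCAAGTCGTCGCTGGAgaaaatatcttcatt
BC100530, chr16:36364215-36364259, - strand: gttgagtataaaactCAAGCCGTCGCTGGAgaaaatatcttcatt
Stfa2, chr16:36405133-36405177, - strand: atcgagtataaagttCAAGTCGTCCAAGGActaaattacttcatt
Stfa2l1, chr16:36160000-36160044, + strand: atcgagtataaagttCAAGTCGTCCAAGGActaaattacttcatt
Stfa3, chr16:36452154-36452198, - strand: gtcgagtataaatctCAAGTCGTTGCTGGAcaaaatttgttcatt
Cstb, chr10:78426981-78427025, + strand: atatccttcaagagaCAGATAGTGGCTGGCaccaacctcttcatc
The stretches of Stfa2 and Stfa2l1 are the same. Over the aligned coding sequence, Stfa1 and BC100530 were 97.9% identical and Stfa2 and Stfa2l1 96.4%, whereas Cstb shared 56.9% to 60.8% with the stefin A genes. Reads were 100 nt long, and 13.1% of all 100-base windows of the BC100530 transcript occur unchanged in BC117090 or Stfa1. For Stfa1 the share was 1.93%, and for the other 7 genes 0%. In windows of 50 bases the share was 33.5% for BC100530, 25.4% for Stfa1, 24.6% for Stfa2l1 and 15.9% for Stfa2. Stfa2l1 and Stfa2 shared theirs with each other or with pseudogenes of the cluster. Counts of BC100530 and Stfa1 are uncertain between near copies, and so are those of Stfa2l1 and Stfa2 for any reads shortened by trimming. The sources used here do not say how reads with several matches were counted.

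The stefin A genes described here lie within 299 kb of chromosome 16, from the start of Stfa2l1 to the end of Stfa3. In this stretch, set by those outermost genes, the annotation places 9 protein-coding genes. Of the 8 that were counted, Stfa2l1, Gm5483, Gm5416 and Stfa1 lie in this order on the + strand, followed by BC117090, BC100530, Stfa2 and Stfa3 on the - strand. The 100 bases before the RefSeq start (GRCm38.p6) are shown for Stfa2l1 and Stfa3, a counted pair whose starts match in both annotations. They hold the longest run shared by the 4 member genes of the cluster matched by symbol to a RefSeq promoter, 13 bases, in capitals.
Stfa2l1, chr16:36156711-36156810, + strand: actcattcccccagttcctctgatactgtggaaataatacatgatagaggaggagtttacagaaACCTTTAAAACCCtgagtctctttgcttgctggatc
Stfa3, chr16:36455393-36455492, - strand: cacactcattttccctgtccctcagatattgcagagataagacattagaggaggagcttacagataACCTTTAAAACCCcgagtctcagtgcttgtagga
The run begins 36 bases before the start of Stfa2l1 and 34 before that of Stfa3, and 32 and 33 bases before the RefSeq starts of Stfa2 and Stfa1. Searched on both strands, it stood within 100 bases of the start in 8 of 32851 promoters (0.0244%). All 8 of those lie in the stefin A cluster, namely Stfa2l1, Cstdc4, Csta3, Stfa1, Cstdc3, Gm7260, Stfa2 and Stfa3. The run was picked because these genes share it. RefSeq promoters were matched by symbol for 6 of the 9 genes, and neither Slpi nor Wfdc17 held the run. Whether any of the 8 promoters belongs to another of the 9 genes under a different symbol was not checked. The pattern TTNNGNAA, searched in the same way, stood within 100 bases in Slpi, Wfdc17, Stfa2 and Stfa2l1, and in 14.9% of all promoters.

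Whey acidic protein genes and Cstb lie apart from this cluster. Wfdc17 (chr11:83703991-83706268, + strand) and Wfdc21 (chr11:83746940-83752642, + strand) are neighbours with a gap of 40.7 kb that holds Wfdc18. Slpi lies at chr2:164354070-164389095 on the - strand, with the microRNA gene Mir7678 in its exons, and Cstb at chr10:78425669-78427622 on the + strand, all in GRCm38.

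Levels are CPM, counts scaled to a common library size with edgeR's TMM factors, and library totals ran from 5546624 to 17256379 counts. Per kilobase of transcript, the order of the mean levels at 26 weeks was Wfdc21 (1967 CPM per kb), Slpi (853), Wfdc17 (330), Cstb (113), Stfa2l1 (104), BC100530 (84.4), Stfa3 (14.6), Stfa2 (7.57) and Stfa1 (0.561). At 14 weeks Slpi came first with 704 CPM per kb and Wfdc21 second with 404 CPM per kb. Between neighbours in the order at 26 weeks, the gap exceeded the larger SD of the pair for Slpi above Wfdc17 (SD 257 CPM per kb) and for BC100530 above Stfa3 (SD 63.6 CPM per kb), and for no other pair. Enough counts for a test were found for 8 of the 9 genes. Stfa1 had 2 counts in all at 14 weeks, 6 at 20 weeks and 15 at 26 weeks, of which 12 were in replicate 1, so it was counted but not tested.

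**Figure D1:**
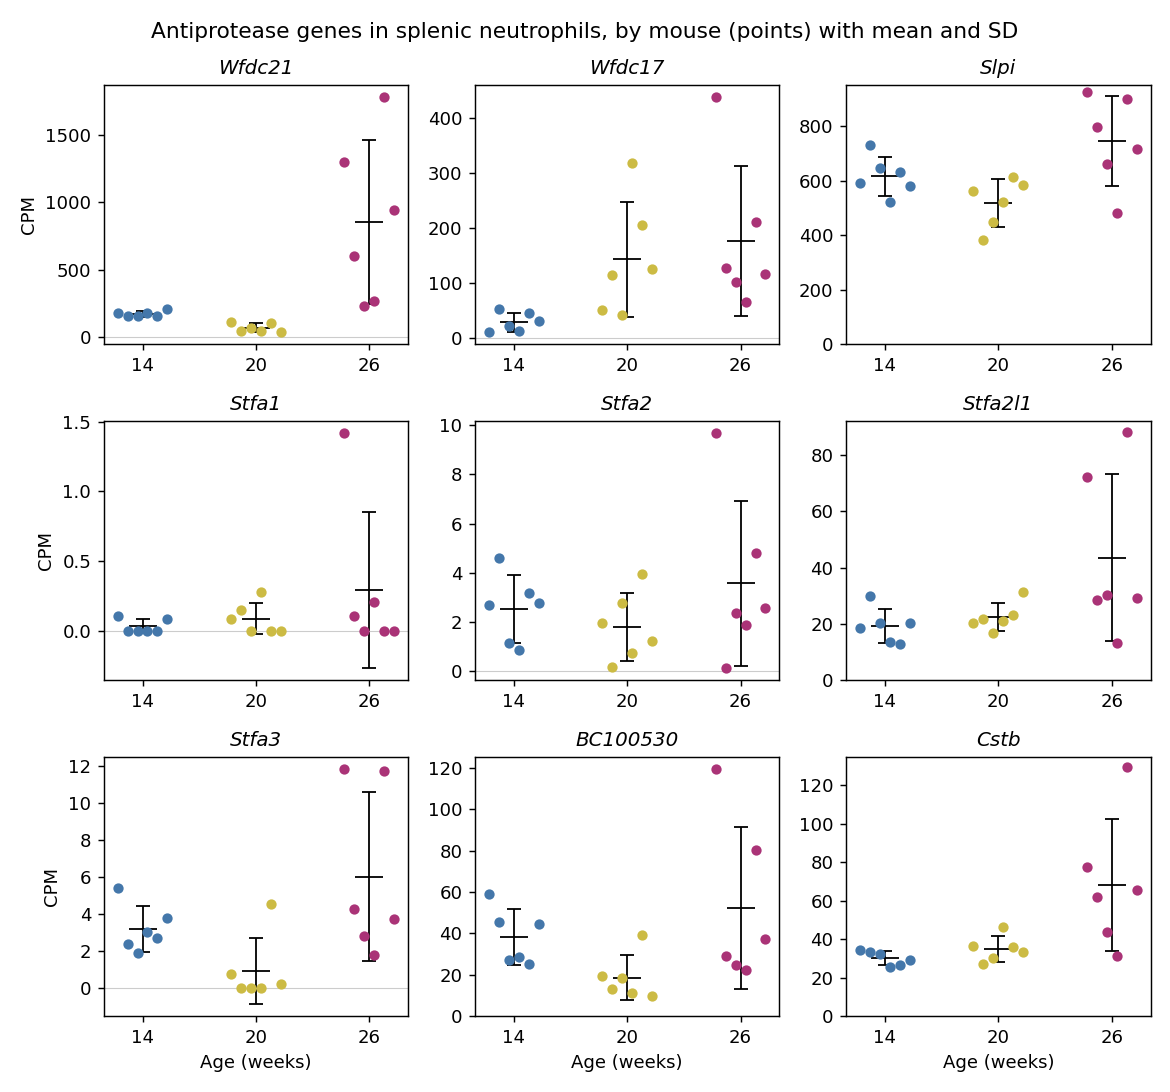
CPM of each of the 9 genes (vertical axes, linear) by age in weeks, with 1 point per mouse and a bar for the mean ± SD of 6 mice. Wfdc21 is low at 20 weeks and high and spread at 26 weeks, Wfdc17 is high at both later ages, and replicates 1 and 5 at 26 weeks (points stand in replicate order) stand above the other 4 mice in 8 of the 9 panels, all but that of Stfa1.

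Before the comparisons, 26 week libraries have to be set apart from each other. Rn18s-rs5, a gene annotated for 18S ribosomal RNA, stood at 3156 CPM in replicate 5, 1407 in replicate 1, 914 in replicate 6, 547 in replicate 2, 180 in replicate 3 and 134 in replicate 4. At 14 weeks it averaged 34.5 ± 12.6 CPM and at 20 weeks 18.1 ± 14.3 CPM (SD, n = 6 each). Every 26 week library was thus above every younger one, and replicates 5 and 1 were highest. The same replicates 1 and 5 had the highest levels at 26 weeks of Wfdc21, Wfdc17, Slpi, Stfa2, Stfa2l1, Stfa3, BC100530 and Cstb, and the part of ribosomal RNA in those values was not tested. Values of the comparisons with 26 weeks are therefore given also without replicates 1 and 5, a choice made after seeing the data.

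Genes were compared between ages with edgeR, in 1 fit of all 18 libraries, and called when the adjusted p was under 0.05 over the 10104 genes tested. At 20 weeks against 14 weeks, 2 of the 8 genes tested were called, Wfdc17 higher and Wfdc21 lower, where 10.2% of all genes tested were called (4.93% higher and 5.27% lower). At 26 weeks against 14 weeks 4 of 8 were called, all higher (Wfdc21, Wfdc17, Stfa2l1 and Cstb), beside 11% of genes in the whole fit (5.45% higher and 5.54% lower). At 26 weeks against 20 weeks 4 of 8 were called, all higher (Wfdc21, Slpi, BC100530 and Cstb), beside 16% of genes in the whole fit (8.03% higher and 7.98% lower). Without replicates 1 and 5 at 26 weeks, 1 of 8 was called in each comparison with 26 weeks, Wfdc21 both times. In those fits 192 genes were called in all against 14 weeks and 699 against 20 weeks, beside 1111 and 1617 with all libraries. The median log2 fold change of the 8 genes was -0.37, 1.04 and 0.97 in the 3 comparisons in that order, beside -0.02, 0.05 and 0.05 over all genes tested. The comparisons share their libraries in pairs, so their values stand side by side and are not independent.

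**Figure D2:**
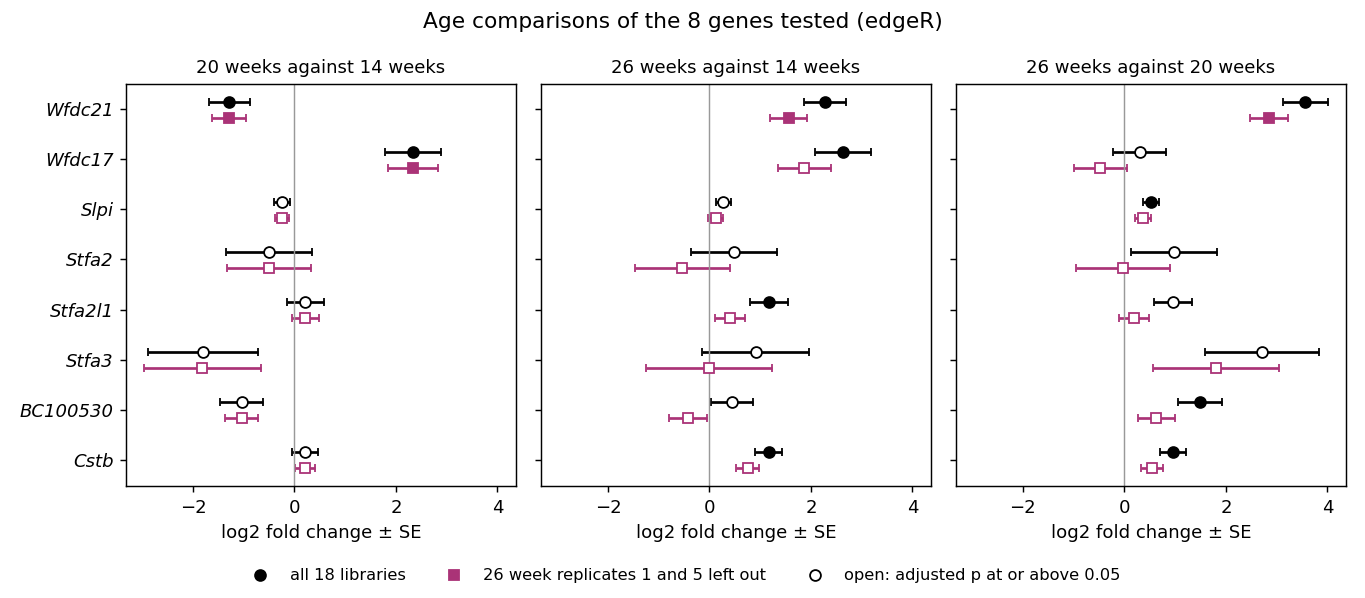
Log2 fold changes ± SE from edgeR (horizontal axes, later age over earlier) of the 8 genes tested in the 3 age comparisons, from all 18 libraries (black circles) and without 26 week replicates 1 and 5 (purple squares), filled where the adjusted p was under 0.05. Wfdc21 is filled in all 3 panels in both fits, and the stefin genes move toward or past 0 in the comparisons with 26 weeks once the 2 libraries are out.

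Wfdc21 changed in every comparison. It fell to 37.5 to 115 CPM at 20 weeks (median 60.5), against 157 to 214 CPM at 14 weeks (median 169.5). At 26 weeks it reached 231 to 1780 CPM, with a median of 772. All 6 mice of each age were apart from all 12 others, so the ages did not overlap in any pair. Such separation was found for 6.89%, 6.77% and 5.98% of all genes tested in 20 against 14, 26 against 14 and 26 against 20 weeks.

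At 20 weeks Wfdc21 was lower than at 14 weeks by a log2 fold change of -1.29 ± 0.41 (SE, edgeR adjusted p = 0.0482). This call lay at the threshold and did not survive the removal of 1 library in 13 of 18 cases: any library of 14 weeks, replicate 2, 3, 4 or 6 of 20 weeks, or replicate 1, 2 or 6 of 26 weeks, with an adjusted p of at most 0.107. It was also lost with RLE or upper quartile scaling (adjusted p 0.056 and 0.058) and with limma-voom (0.0783). At 26 weeks it was higher than at 14 weeks by 2.28 ± 0.42 (adjusted p = 0.00253) and higher than at 20 weeks by 3.57 ± 0.44 (adjusted p = 9.91e-05), calls that held in all 18 such fits. Without 26 week replicates 1 and 5 the same values were 1.56 ± 0.36 (adjusted p = 0.0393) and 2.85 ± 0.37 (adjusted p = 0.00112).

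Among 26 week mice Wfdc21 stood at 1780 CPM in replicate 5, 1295 in replicate 1, 942 in replicate 6, 603 in replicate 2, 271 in replicate 4 and 231 in replicate 3. That is the order of Rn18s-rs5 in the same mice except for the 2 lowest. The 3 genes most like Wfdc21 over the 18 libraries were S100a8 (Pearson r of log2 CPM 0.993), S100a9 (0.985) and Camp (0.982), which encode the calprotectin subunits and the cathelicidin of neutrophil granules and cytosol. After the mean of each age was subtracted, r was still 0.973, 0.963 and 0.951. S100a8 was lower at 20 weeks than at 14 weeks by -1.20 ± 0.38 (edgeR adjusted p = 0.0493) and higher at 26 weeks than at 20 weeks by 3.58 ± 0.42, beside the -1.29 and 3.57 of Wfdc21. Its call at 20 weeks was lost in 13 of 18 fits with 1 library removed, those without any library of 14 weeks, replicate 2, 3, 4 or 6 of 20 weeks, or replicate 1, 2 or 6 of 26 weeks. These r are a description over libraries that share age, depth and composition.

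**Figure D3:**
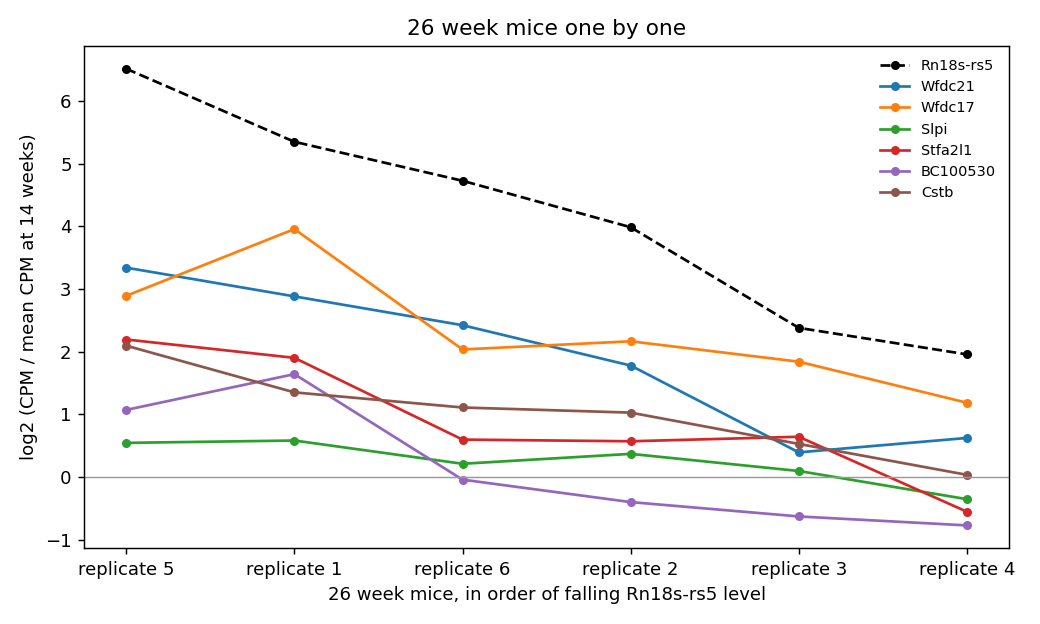
The 6 mice of 26 weeks in order of falling Rn18s-rs5 level (horizontal axis), with each gene's CPM over its mean at 14 weeks on a log2 scale (vertical axis), for Rn18s-rs5 (dashed) and the 6 inhibitor genes that averaged at least 10 CPM at 26 weeks. Wfdc17 and Wfdc21 lie above their 14 week means in every mouse, and so does Cstb, while BC100530 does so in replicates 5 and 1 only.

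Wfdc17 was higher at both later ages than at 14 weeks. At 20 weeks its 6 mice stood at 50.7, 114, 41.7, 318, 205 and 125 CPM, against 9.56, 51.7, 21.4, 12.4, 44.4 and 29.8 CPM at 14 weeks. At 26 weeks the mice stood at 438, 127, 101, 64.2, 210 and 116 CPM. Of the 20 week mice 4, and of the 26 week mice all 6, were above every 14 week mouse, and the later 2 ages overlapped.

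The log2 fold change of Wfdc17 was 2.34 ± 0.55 at 20 weeks against 14 weeks (edgeR adjusted p = 0.00917) and 2.64 ± 0.55 at 26 weeks against 14 weeks (adjusted p = 0.00542), and both calls held whichever single library was left out. Without 26 week replicates 1 and 5 the second was 1.87 ± 0.52 and missed the threshold (adjusted p = 0.0718). Between 26 and 20 weeks the difference was 0.30 ± 0.52 (adjusted p = 0.761), and its sign was negative without replicate 1 of 26 weeks (-0.20) or without replicates 1 and 5 together (-0.47, adjusted p = 0.701).

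Some markers of other cell types were also called higher than at 14 weeks, those of macrophages at 20 weeks and those of plasma cells at both later ages. Whether they followed Wfdc17 from mouse to mouse was not tested. Of the 10 monocyte and macrophage genes listed, 8 were in the table and 3 could be tested, Adgre1, Csf1r and Cd68. All 3 were called higher at 20 weeks than at 14 weeks, beside 4.93% of all genes tested. Summed over the list, 20 week libraries held 558 to 1170 CPM, against 200 to 513 CPM in 14 week libraries, and 26 week libraries held 211 to 513 CPM. Adgre1, the F4/80 gene of macrophages, was at 143 ± 34.1 CPM at 20 weeks, against 43.2 ± 20.5 CPM at 14 weeks, and at 42.2 ± 20.7 CPM at 26 weeks (SD, n = 6 each). C1qa and C1qb were at 0 in the 14 and 26 week libraries. At 26 weeks against 14 weeks none of the 3 tested markers was called, which does not show that they were unchanged.

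Plasma cell markers were higher at both later ages than at 14 weeks. Summed over the 5 genes listed, they held 9.13 to 1704 CPM in 20 week libraries, against 0 to 13.9 CPM in 14 week libraries, and 1.98 to 478 CPM in 26 week libraries. Of the 5, 2 could be tested, Jchain and Igkc, genes of antibody chains, and both were called higher at each later age. Among all genes tested 4.93% were called higher at 20 weeks and 5.45% at 26 weeks. Jchain averaged 366 ± 370 CPM at 20 weeks (edgeR adjusted p = 0.000651), against 0.195 ± 0.245 CPM at 14 weeks, and 22.5 ± 24.7 CPM at 26 weeks (adjusted p = 0.0092 against 14 weeks, and 0.0538 without replicates 1 and 5 of 26 weeks). Igkc averaged 270.5 ± 552 CPM at 20 weeks (adjusted p = 0.0194), against 2.79 ± 4.74 CPM at 14 weeks, and 129 ± 171 CPM at 26 weeks (adjusted p = 0.0379 against 14 weeks, and 0.143 without replicates 1 and 5; SD, n = 6 each). The Igkc call was lost at 20 weeks without replicate 4 of 14 weeks or 6 of 20 weeks, and at 26 weeks without replicate 1, 2, 3, 4 or 5 of 14 weeks or 1, 4 or 5 of 26 weeks. Against 14 weeks limma-voom called neither gene, at 20 weeks (adjusted p 0.109 for Jchain and 0.195 for Igkc) or at 26 weeks (0.678 and 0.415). Igkc was also lost at both ages with no filter on low counts, with a replicate block and with the library total as a covariate.

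At 20 weeks the eosinophil list of 6 genes also stood at 32.3 to 76.6 CPM in sum, against 5.82 to 20.7 CPM at 14 weeks, and at 8.28 to 35.8 CPM at 26 weeks. Of its 2 genes tested Ccr3 was higher at 20 weeks than at 14 weeks by 2.69 (edgeR adjusted p = 0.0263), a call lost without replicate 2 of 14 weeks or 6 of 20 weeks, while Prg2, a defining granule gene, was at 0 at 20 weeks, as were Ear6 and Il5ra. The 5 basophil and mast cell genes, none of them tested, summed to 0 to 25.8 CPM at 20 weeks, against 0 to 2.99 CPM at 14 weeks, and to 0 to 0.517 CPM at 26 weeks. The part of other cells in the level of Wfdc17 was not tested at either age, and in bulk libraries more cells of a type and more RNA per cell cannot be told apart.

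**Figure D4:**
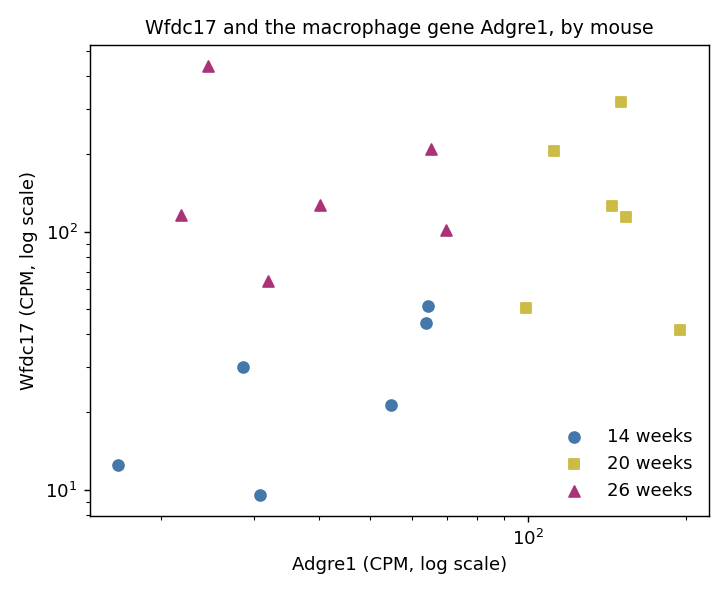
Wfdc17 (vertical axis) against Adgre1 (horizontal axis), both in CPM on log scales, with 1 point per mouse. The 20 week mice lie at the right, with Adgre1 at 99.0 CPM or more, and the 26 week mice lie in the Adgre1 range of about the 14 week mice, with Wfdc17 at 64.2 CPM or more, above every 14 week mouse.

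The genes most like Wfdc17 were Ly6i (r = 0.898 over 18 libraries, 0.736 after age means were subtracted), Ifitm2 (0.894 and 0.729) and Mrps24 (0.88 and 0.728). Ifitm2 encodes an interferon-inducible membrane protein. Wfdc17 did not follow its neighbour Wfdc21, with r = 0.215 over 18 libraries. Wfdc18, between them, had 40 counts over all libraries and was not tested.

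Slpi was abundant at every age. Its mice ran from 521 to 730 CPM at 14 weeks, from 383 to 614 CPM at 20 weeks and from 483 to 924 CPM at 26 weeks, and all pairs of ages overlapped. The means were 617 ± 71.1, 519 ± 88.0 and 747 ± 165 CPM (SD, n = 6 each). At 26 weeks it was higher than at 20 weeks by 0.52 ± 0.15 (edgeR adjusted p = 0.0238), a call lost without replicate 2 of 20 weeks or replicate 1 or 5 of 26 weeks (adjusted p 0.0585, 0.0628 and 0.0592), or in a fit of only those 2 ages (0.0687). Without replicates 1 and 5 together it was 0.37 ± 0.15 (adjusted p = 0.165). At 20 and 26 weeks against 14 weeks the values were -0.25 (adjusted p = 0.368) and 0.28 (adjusted p = 0.297), the second 0.12 (adjusted p = 0.846) without replicates 1 and 5.

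Genes of the proteases that Slpi can block were nearly silent. Elane, the elastase gene, had 0 counts at 14 and 20 weeks and 8 in all at 26 weeks, and Ctsg, the cathepsin G gene, had 0, 18 and 17 counts at the 3 ages in order. A count of 0 bears on the messenger RNA alone, since these enzymes are made early in neutrophil development and stored. Of the 5 serine protease genes listed 1 could be tested, Prss57, and it was called in no comparison. The gene most like Slpi was Cmtm7 (r = 0.94), followed by Ifi27l2a (0.925) and Ndufb11 (0.92).

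Of the 5 stefin A genes named at the start, Stfa2l1 and BC100530 gave most of the counts. Gm5483, another gene of the cluster, lay near their levels, with 50.7 CPM per kb at 14 weeks, 31.8 at 20 weeks and 109 at 26 weeks, beside 46.0, 53.3 and 104 CPM per kb for Stfa2l1, and it is not in the sums that follow. Its values are per kb of a 414-base transcript, whereas all its annotated exons hold 1862 bases, over which they would be lower. Of the 100-base windows of that transcript 11.1% occur unchanged in 2010005H15Rik, which has no counts here. Summed over Stfa1, Stfa2, Stfa2l1, Stfa3 and BC100530, the level was 63.3 ± 18.8 CPM at 14 weeks, 43.7 ± 13.8 CPM at 20 weeks and 106 ± 74.4 CPM at 26 weeks (SD, n = 6 each). BC100530 made up 59.9 ± 5.58% of the sum at 14 weeks, 40.8 ± 11.5% at 20 weeks and 49.2 ± 6.47% at 26 weeks. Stfa2l1 made up 30.9 ± 6.56%, 53.7 ± 14.9% and 41.8 ± 7.25% at the same ages. The ratio of Stfa2l1 to BC100530 within a library, which does not depend on library scaling, ran from 0.314 to 0.749 at 14 weeks, from 0.590 to 3.13 at 20 weeks and from 0.585 to 1.21 at 26 weeks, with medians of 0.493, 1.35 and 0.885. These ranges overlapped in every pair of ages.

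**Figure D5:**
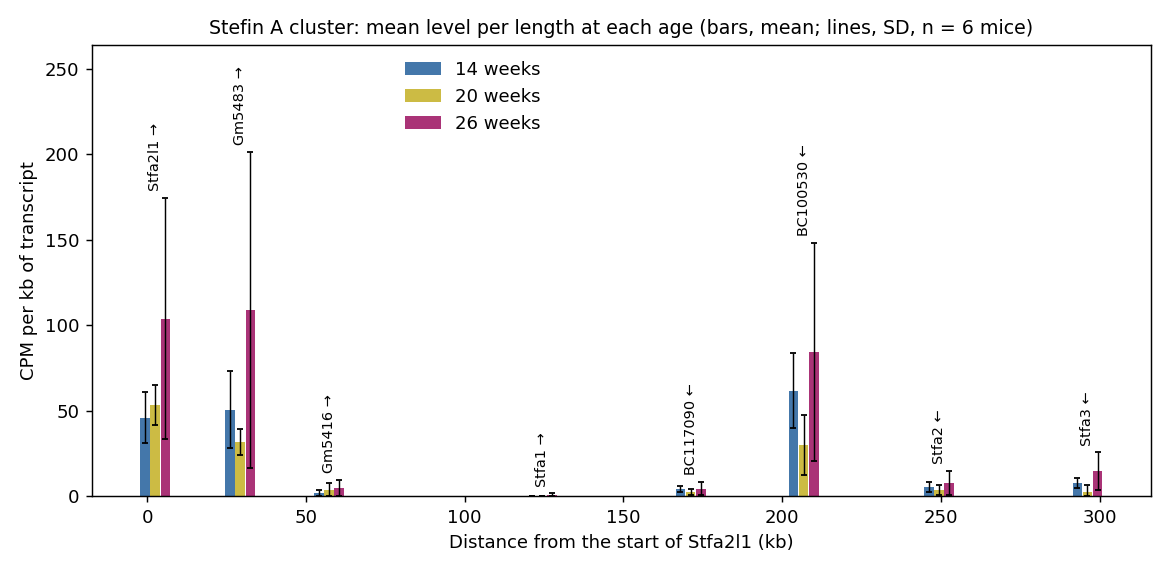
Mean CPM per kb of transcript (vertical axis, bars from 0) of the 8 counted protein-coding genes from Stfa2l1 to Stfa3 in the stefin A cluster at 14, 20 and 26 weeks, placed by the distance of their middle from the start of Stfa2l1 in kb (horizontal axis), with lines for 1 SD over 6 mice, drawn no lower than 0, and arrows for the strand. Stfa2l1, Gm5483 and BC100530 carry nearly all of the signal, and Stfa1, between them, is near 0.

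BC100530 stood at 120, 29.0, 24.8, 22.4, 80.5 and 37.2 CPM in the 26 week mice, against 19.6, 13.0, 18.6, 11.3, 39.1 and 10.0 CPM in the 20 week mice. At 14 weeks it ran from 25.1 to 58.9 CPM. Replicate 5 of 20 weeks lay among the other ages, and the other 5 were below every mouse of 14 and 26 weeks. The log2 fold change at 26 weeks against 20 weeks was 1.49 ± 0.43 (edgeR adjusted p = 0.0219). It missed the threshold without replicate 4 of 20 weeks (adjusted p = 0.0521), without replicate 1 of 26 weeks (0.0896) or without replicate 5 of 26 weeks (0.0594), and was 0.63 ± 0.36 (adjusted p = 0.366) without the last 2 together. It was also lost with limma-voom (adjusted p = 0.113) and in a fit of only those 2 ages (0.0539).

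At 20 weeks against 14 weeks BC100530 gave -1.04 ± 0.43 (adjusted p = 0.138), and without replicate 5 of 20 weeks -1.40 (adjusted p = 0.04). At 26 weeks against 14 weeks it gave 0.45 (adjusted p = 0.609), which was -0.42 without replicates 1 and 5 of 26 weeks. An exon of the antisense gene Gm15845 overlaps an exon of BC100530. Gm15845 gave -1.37 ± 0.46 at 20 against 14 weeks (adjusted p = 0.0665) and 1.59 ± 0.47 at 26 against 20 weeks (adjusted p = 0.0238), a call lost without replicate 2 or 4 of 20 weeks, without replicate 1 or 5 of 26 weeks, and without the last 2 together (0.86, adjusted p = 0.301). The sources used here do not say whether counting used strand, so reads of this pair cannot be told apart where they overlap. The gene most like BC100530 was Cd3d, of the T cell receptor complex (r = 0.897), followed by Mrgpra2b (0.889) and Sri (0.876). Cd3d averaged 199.7 ± 108 CPM at 26 weeks, against 70.1 ± 20.9 CPM at 20 weeks (SD, n = 6 each), and was the 1 of 3 tested T and NK cell markers called there. The 6 markers of that list summed to 97.8 to 380 CPM at 26 weeks, against 49.7 to 102 CPM at 20 weeks. Cd3d carried nearly all of it, at 199.7 of a mean sum of 205 CPM at 26 weeks and 70.1 of 72.0 CPM at 20 weeks. Cd3e and Ncr1 were at 0 at 20 weeks, and Klrb1c was at 0 at 26 weeks. The part of T and NK cells in BC100530 was not tested.

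Stfa2l1 stood at 72.0, 28.6, 30.1, 13.1, 88.2 and 29.2 CPM in the 26 week mice, against 18.5, 29.9, 20.3, 13.7, 12.7 and 20.4 CPM in the 14 week mice. At 20 weeks it ran from 16.6 to 31.3 CPM. Replicates 1 and 5 of 26 weeks were above all others, and the other 4 lay within the range of the younger mice. At 26 weeks against 14 weeks the log2 fold change was 1.17 ± 0.37 (edgeR adjusted p = 0.0444), and removal of 1 library ended the call in 12 of 18 cases, those without replicates 1, 3, 4, 5 or 6 of 14 weeks, 1, 2, 4 or 5 of 20 weeks, or 1, 5 or 6 of 26 weeks. The highest adjusted p among them was 0.153, and without replicates 1 and 5 of 26 weeks together the value was 0.40 ± 0.30 (adjusted p = 0.634). The call was also lost with no filter on low counts (adjusted p = 0.0596) and with the library total as a covariate (0.135). At 26 weeks against 20 weeks it was 0.96 (adjusted p = 0.0807), a value past the threshold without replicate 4 of 26 weeks (1.15, adjusted p = 0.02) and 0.19 (adjusted p = 0.806) without replicates 1 and 5. Unlike BC100530, it gave a value near 0 at 20 weeks against 14 weeks (0.22 ± 0.36, adjusted p = 0.798), and the difference between the genes was not tested. Most like it were Tceb2 (r = 0.915), Tmsb4x (0.914), the thymosin beta 4 gene, and WI1-1993I8.1 (0.911).

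Stfa3 was low. Its mice stood at 0.736, 0, 0, 0, 4.52 and 0.200 CPM at 20 weeks, against 5.41, 2.39, 1.87, 3.00, 2.69 and 3.80 CPM at 14 weeks, and ran from 1.76 to 11.8 CPM at 26 weeks. Of the 20 week mice 5 of 6 were below every mouse of the other ages, and replicate 5 was not. The log2 fold change was -1.80 ± 1.09 at 20 against 14 weeks (edgeR adjusted p = 0.353) and 2.71 ± 1.12 at 26 against 20 weeks (adjusted p = 0.108). Without replicate 5 of 20 weeks both passed the threshold, with adjusted p of 0.0227 and 0.00599, so that 1 library decided them. At 26 against 14 weeks it was 0.91 (adjusted p = 0.698). Without replicates 1 and 5 of 26 weeks the comparisons with 20 and 14 weeks gave 1.80 (adjusted p = 0.467) and -0.011 (adjusted p = 1).

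Stfa3 and BC100530 had r = 0.879 with each other over the 18 libraries and 0.786 after age means were subtracted. The genes most like Stfa3 were Erg (0.943), a transcription factor gene, Clec4a2 (0.943) and Ly6c2 (0.93). Stfa2, the near copy of Stfa2l1, averaged 2.54 ± 1.38 CPM at 14 weeks, 1.79 ± 1.39 CPM at 20 weeks and 3.57 ± 3.36 CPM at 26 weeks, with overlap in every pair. It was called in no comparison (log2 fold changes -0.50, 0.49 and 0.98, the last 2 being -0.53 and -0.030 without replicates 1 and 5 of 26 weeks), and its closest gene, Cxx1a, reached only r = 0.759.

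Cstb, the stefin B gene, was higher at 26 weeks than at both earlier ages. Its mice stood at 77.2, 61.7, 43.7, 31.0, 129 and 65.3 CPM at 26 weeks, against 34.4, 33.3, 32.1, 25.8, 26.8 and 29.1 CPM at 14 weeks. At 20 weeks it ran from 27.0 to 46.2 CPM. Of the 26 week mice 5 of 6 were above every 14 week mouse, and replicate 4 was not.

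The log2 fold change of Cstb was 1.17 ± 0.26 at 26 against 14 weeks (edgeR adjusted p = 0.00758), which held without any single library, and 0.96 ± 0.26 at 26 against 20 weeks (adjusted p = 0.0153), which missed the threshold without replicate 5 of 26 weeks (adjusted p = 0.0501). Without replicates 1 and 5 together these were 0.75 ± 0.22 (adjusted p = 0.0852) and 0.54 ± 0.22 (adjusted p = 0.159). At 20 weeks against 14 weeks it was 0.21 (adjusted p = 0.708). Cstb was most like Cox6a1 (r = 0.971), a subunit of cytochrome oxidase, Txn1 (0.967), the thioredoxin gene, and Fcer1g (0.96). Among the inhibitor genes it was closest to Stfa2l1, with r = 0.864.

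Other genes of the same pathways were counted as whole lists. Of 14 names for other stefin A cluster genes, 3 could be tested, and Gm5483 alone was called, higher at 26 weeks (45.1 ± 38.3 CPM) than at 20 weeks (13.2 ± 3.23 CPM; SD, n = 6 each) by 1.77 ± 0.44 (edgeR adjusted p = 0.00871). Without 26 week replicates 1 and 5 this was 0.73 (adjusted p = 0.201). Of 12 secreted cystatins 1 could be tested, Cst3, the cystatin C gene, which was higher at 26 weeks (1580 ± 558 CPM) than at 14 weeks (867 ± 159 CPM) by 0.87 ± 0.23 (adjusted p = 0.0181), and by 0.59 (adjusted p = 0.189) without the same 2 libraries. None of 21 other whey acidic protein genes had enough counts for a test.

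Cysteine cathepsins, the enzymes stefins can block, were tested for 8 of 11 listed genes. At 20 weeks 2 were higher than at 14 weeks: Ctss, the cathepsin S gene, by 2.10 ± 0.38 (edgeR adjusted p = 0.0019) and Ctsb, the cathepsin B gene, by 0.53 ± 0.13 (adjusted p = 0.0146). Among all genes tested 4.93% were called higher there. Ctss was at 91.5 ± 24.8 CPM at 20 weeks, against 21.4 ± 11.96 CPM at 14 weeks, and at 59.9 ± 30.4 CPM at 26 weeks, where it was higher than at 14 weeks by 1.49 (adjusted p = 0.0143, and 0.0604 without 26 week replicates 1 and 5). Between 26 and 20 weeks, Ctsh was higher at 26 weeks by 0.64 (adjusted p = 0.00501, and 0.0203 without 26 week replicates 1 and 5) and Ctsb lower by -0.42 (adjusted p = 0.0352), a call lost without replicate 2, 3, 4 or 6 of 20 weeks or replicate 1, 5 or 6 of 26 weeks, with an adjusted p of at most 0.08, and without replicates 1 and 5 of 26 weeks together (-0.29, adjusted p = 0.216). The rise of Ctss and Ctsb at 20 weeks came with the macrophage markers given above, and their part in it was not tested.

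Serpins and other inhibitors fell at 20 weeks for 4 of the 7 genes tested and rose for 0, where 5.27% of all genes tested were called lower. Serpinb10 stood at 54.3 ± 25.3 CPM at 20 weeks, against 186 ± 38.5 CPM at 14 weeks (-1.78 ± 0.27, edgeR adjusted p = 0.000625). Serpinb1a, an inhibitor of neutrophil serine proteases, stood at 541 ± 261 CPM, against 1110 ± 234 CPM at 14 weeks (-1.03 ± 0.26, adjusted p = 0.0153). Timp2, a metalloproteinase inhibitor gene, gave -0.77 ± 0.14 (adjusted p = 0.0021), and Serpinb6a gave -1.24 ± 0.37 (adjusted p = 0.0387), a call that ended in 12 of 18 fits with 1 library removed, those without replicates 1, 3, 4, 5 or 6 of 14 weeks, 2, 4 or 6 of 20 weeks, or 1, 2, 5 or 6 of 26 weeks, and in the fit without 26 week replicates 1 and 5 (adjusted p = 0.0563).

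Of the 7, 3 were higher at 26 weeks than at 20 weeks, Serpinb10 by 1.93 ± 0.27 (edgeR adjusted p = 0.000236), Serpinb1a by 1.43 ± 0.26 (adjusted p = 0.00124) and Serpinb6a by 1.31 ± 0.37 (adjusted p = 0.0199), and 0 were lower. Among all genes tested 8.03% were called higher there. The Serpinb6a call was lost without replicate 6 of 26 weeks (adjusted p = 0.0519), without replicates 1 and 5 together (1.32, adjusted p = 0.076) and in a fit of only the 2 ages (0.0566), while without replicates 1 and 5 Serpinb10 gave 1.77 (adjusted p = 0.00375) and Serpinb1a 1.42 (adjusted p = 0.0107). Between 26 and 14 weeks, 1 was higher at 26 weeks and 1 lower, beside 5.45% and 5.54% of all genes tested. Timp2 remained low, at 394 ± 57.6 CPM at 26 weeks, against 778 ± 86.8 CPM at 14 weeks (-0.98 ± 0.14, edgeR adjusted p = 0.000983, and 0.0138 without replicates 1 and 5). Spint2, the gene of a Kunitz-type serine protease inhibitor, was higher, at 55.2 ± 14.7 CPM at 26 weeks, against 32.0 ± 3.29 CPM at 14 weeks (0.79 ± 0.24, adjusted p = 0.0367). That call was lost without any library of 14 weeks, without replicate 1, 2, 5 or 6 of 26 weeks, and without replicates 1 and 5 together (0.67, adjusted p = 0.189).

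Of the 8 neutrophil marker genes 6 were also lower at 20 weeks than at 14 weeks, among them Ly6g by -1.37 ± 0.30 (edgeR adjusted p = 0.00574), and 1, Csf3r, was higher. Among all genes tested, 5.27% were called lower there and 4.93% higher. At 26 weeks against 14 weeks, where 5.45% of all genes tested were called higher and 5.54% lower, 3 markers were higher, S100a8, S100a9 and Ly6g, and 3 lower, Mmp9 (-0.90), Itgam (-0.89) and Cxcr2 (-0.61). Of these, S100a8 and Mmp9 alone were called without replicates 1 and 5 of 26 weeks. The Cxcr2 call (adjusted p = 0.0442) was also lost in 12 of 18 fits with 1 library removed, those without replicate 1, 2, 3 or 5 of 14 weeks, 2, 5 or 6 of 20 weeks, or 1, 2, 4, 5 or 6 of 26 weeks, and with RLE or upper quartile scaling (adjusted p 0.0504 and 0.0921). At 26 weeks against 20 weeks 4 were higher, S100a8, S100a9, Ly6g and Retnlg, and 1 lower, Csf3r, beside 8.03% and 7.98% of all genes tested. Each of these stayed called without replicates 1 and 5 of 26 weeks. Summed over the 8, the markers held 19609 to 27979 CPM at 20 weeks, against 36199 to 45621 CPM at 14 weeks, and 34926 to 136736 CPM at 26 weeks. S100a8 and S100a9 averaged 24468 and 28242 CPM of the mean sum of 73244 CPM at 26 weeks. The lower level of Wfdc21 and of the serpins at 20 weeks came with this lower sum, and its part in them was not tested.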

How the data were processed

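Total RNA of neutrophils sorted from 18 spleens was turned into Nextera XT libraries, and single-end reads had 100 nt, per the labels' protocols. The deposited values are whole, unscaled counts for each symbol. The submitters' processing notes name STAR 2.4.2a, Trimmomatic 0.32, HTSeq 0.6.1, DESeq, DESeq2 1.12.3 and the GRCm38.p4 build among what the authors used, and the sources used here give neither annotation nor strand setting.

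edgeR 4.0.16 (R 4.3.3) was used for the tests, with TMM factors, filterByExpr, 1 robust quasi-likelihood fit of age over 18 libraries and Benjamini-Hochberg adjustment over 10104 genes. Replicate libraries differed by more than counting error. Simulated counts took each gene's mean over all 18 libraries, with changes entered at 20 weeks only. At 20 against 14 weeks edgeR recovered 17 of 100 genes changed 2-fold and 51 of 100 changed 4-fold among 10104 genes. False calls numbered 5. GENCODE M21 models placed 16820 of 17941 symbols. Log2 CPM used a prior count of 2.

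The genes described, the lists of related and marker genes and the tests were chosen with earlier results of these data known. From each list of related genes up to 4 called genes per comparison, by smallest p, and for each gene tested the 3 with the highest r (immunoglobulin and T cell receptor segments, Gm and Rik names and mitochondrial transcripts left out) were named. Marker genes were named after their values were seen. Alternatives were RLE and upper quartile scaling, DESeq2 1.42.0, limma-voom 3.58.1, other filters on low counts, 2 ages at a time, a replicate block, a depth covariate and each library left out. The libraries of a group are 6 different mice. No batch is given in the labels.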

Additional observations from a re-analysis of the deposited data

Results flagged for a closer look

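In 27 groups of 6 mice, each gene at each age was checked for 1 mouse far from the other 5, and 3 groups had such a mouse. The cutoff gives about 1 in 20 by chance for values with a normal spread, which these counts, some of them 0, need not have. The groups also share libraries, so 3 of 27 cannot be set against that rate. Stfa1 at 26 weeks was at 1.42 CPM in replicate 1, with the next mouse at 0.207 CPM, and these are 12 and 2 counts. Stfa3 at 20 weeks was at 4.52 CPM in replicate 5, with the next mouse at 0.736 CPM. BC100530 at 20 weeks was at 39.1 CPM in replicate 5 as well, with the next mouse at 19.6 CPM. The last 2 values come from the same library.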

How the results depend on the processing

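Levels of the 9 genes at each age kept within 1 SD under scaling by plain library totals. Removal of 1 mouse of 6 cannot move a mean by 1 SD, so the same check without any single mouse could not fail. Without 1 mouse the mean of Wfdc21 at 26 weeks ran from 668 to 978 CPM, beside 854 CPM with all 6. The number of the 8 genes called at 20 against 14 weeks, 2 with all libraries, was 1 with RLE scaling, 1 with upper quartile scaling, 1 with limma-voom, 4 after a loess correction for gene length (added after seeing the data; Slpi and BC100530 lower) and 1 to 4 without 1 library. At 26 against 14 weeks, 4 with all libraries, it was 1 without replicates 1 and 5 of 26 weeks together and 3 to 4 without 1 library. There it was 3 after the length correction, with no filter on low counts, with a replicate block or with the library total as a covariate. At 26 against 20 weeks, 4 with all libraries, it was 2 in a fit of only the 2 ages, 1 without replicates 1 and 5 together and 1 to 5 without 1 library. In the same comparison it was 3 after the length correction, 6 with DESeq2, and 5 with a stricter filter on low counts or a replicate block. The causes were not tested.

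Values of genes that were not called in the comparison changed sign in some settings. At 26 against 14 weeks Stfa2 was -0.67 with limma-voom, and without replicates 1 and 5 Stfa2 was -0.53, Stfa3 -0.011 and BC100530 -0.42. After the length correction Slpi was -0.125, Stfa2 -0.056 and BC100530 -0.10. At 26 against 20 weeks Wfdc17 was -0.0061 with limma-voom, -0.47 without replicates 1 and 5 and -0.084 after the length correction, and Stfa2 was -0.030 without replicates 1 and 5. Without 1 library, Stfa2 at 26 against 14 weeks ran from -0.084 to 0.77 and Wfdc17 at 26 against 20 weeks from -0.20 to 0.71.

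Over all genes, DESeq2 called 1727, 1808 and 2553, against 1030, 1111 and 1617 by edgeR. At 26 against 14 weeks limma-voom called 2633, a fit of 2 ages 1710, and fits without replicate 1, 2 or 6 of 26 weeks 652, 733 and 726. Upper quartile scaling gave 699 higher and 429 lower calls there, and DESeq2 1081 and 727, against 551 and 560.

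Replicate numbers name different mice at each age, since 18 spleens were used. Deviations of same-numbered pairs correlated at -0.05 to 0.14 over the 3 comparisons. With the replicate number as a block 2, 3 and 5 of the 8 genes were called (edgeR adjusted p 0.122 for Stfa2l1 at 26 against 14 weeks and 0.0229 for Stfa3 at 26 against 20 weeks), and 962, 946 and 1573 of all genes. Own numbers correlated best for 1, 6 and 1 of 12 libraries, the 6 being at 26 against 14 weeks, and whether same-numbered libraries share a batch was not tested. At the depth of these libraries Stfa1 could not be tested, and Stfa2 and Stfa3 rest on few counts.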
